A study of Arabidopsis thaliana with 12 samples.

Results

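The transcription factor genes that set how Arabidopsis thaliana responds to light and how its leaves turn green were followed here. The 10 members are GLK1 (AT2G20570), GLK2 (AT5G44190), GNC (AT5G56860), GNL (AT4G26150), HY5 (AT5G11260), HYH (AT3G17609), PIF4 (AT2G43010), PIF5 (AT3G59060), PIF3 (AT1G09530) and PIF1 (AT2G20180). They were chosen by their loci, with no threshold on their values but with earlier results of these data known, and are 10 of the 38288 genes in the deposited count table. All 10 passed the filter on low counts, which kept 20398 genes. Leaves came from chlorella-1, labelled as a knockout of the long noncoding RNA gene CHLORELLA, and from the wild type Col, each at 26 d and at 14 d of age. There were 3 libraries per group, so 12 together, made from total RNA after removal of ribosomal RNA. chlorella-1 is a single mutant line, the table names no CHLORELLA gene by which the knockout could be checked, and the labels give neither the hour of harvest nor whether libraries came from separate plants. The p-values therefore measure the spread between these libraries, which may be partly technical.

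GLK1 and GLK2 (GOLDEN2-LIKE) are paired activators of nuclear genes for the light-harvesting antenna and for chlorophyll synthesis. GNC and GNL are GATA factors of the B class that also promote chlorophyll formation. HY5 and its close relative HYH are bZIP proteins that drive light responses and are removed in darkness through the COP1 ubiquitin ligase, while the PIF proteins are bHLH factors that act in dim light or darkness and are destroyed once phytochrome is activated by light. In leaves, PIF4 and PIF5 are also known as promoters of senescence, the ordered breakdown of ageing leaves in which chlorophyll is lost.

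The stretch of 200 bases upstream of each annotated gene start was searched on both strands for 4 short motifs known from binding studies of these families: CACGTG, the G-box; CACATG, an E-box variant bound by PIFs; CCAATC; and GATAAG, which GATA factors bind. Of the 10 windows, 4 held a match, 1 each, and these are shown because they carry letters that members of the same set are known to bind. The sequences run 5′ to 3′ on the strand of the gene, from the RefSeq reference of build TAIR10.1, and capitals mark the match, which in GLK1 and HY5 lies on the opposite strand.
GLK1, chr2:8855102-8855301, plus strand: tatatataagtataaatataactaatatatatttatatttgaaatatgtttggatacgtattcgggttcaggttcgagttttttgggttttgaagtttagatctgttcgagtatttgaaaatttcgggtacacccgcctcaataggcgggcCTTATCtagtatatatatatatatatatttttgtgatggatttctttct
HY5, chr5:3595074-3595273, minus strand: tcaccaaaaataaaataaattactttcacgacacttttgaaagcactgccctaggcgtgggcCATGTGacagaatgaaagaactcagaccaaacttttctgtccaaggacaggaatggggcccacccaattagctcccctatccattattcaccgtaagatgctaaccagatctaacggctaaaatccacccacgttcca
PIF5, chr3:21830838-21831037, minus strand: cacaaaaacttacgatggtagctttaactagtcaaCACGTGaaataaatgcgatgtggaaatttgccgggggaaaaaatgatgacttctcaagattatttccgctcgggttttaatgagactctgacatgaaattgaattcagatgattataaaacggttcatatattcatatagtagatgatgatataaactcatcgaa
PIF3, chr1:3075568-3075767, plus strand: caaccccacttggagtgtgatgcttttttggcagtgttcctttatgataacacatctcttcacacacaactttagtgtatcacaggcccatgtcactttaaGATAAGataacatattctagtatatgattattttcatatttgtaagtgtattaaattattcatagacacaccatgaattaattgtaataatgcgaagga

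The GATAAG match began 49 bases before the start of GLK1 and 99 bases before that of PIF3. The CACATG match began 138 bases before the start of HY5, and the CACGTG match 165 bases before that of PIF5. Among 27443 windows of the same length in the genome, CACGTG occurred in 5.64%, CACATG in 8.99%, CCAATC in 8.43% and GATAAG in 9.97%. The share of windows with any of these motifs was not counted. The number of factors with a match to any motif therefore cannot be set against these single shares. A match describes the letters only.

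Libraries held 45120547 to 70452171 counts. The 3 leaf mesophyll markers RBCS1A, LHCB2.1 and CA1 had counts in all 12 libraries. Their levels were lower at 26 d than at 14 d in both genotypes, and lowest in chlorella-1 at 26 d. CA1 had 0.724 to 7.96 CPM (read counts scaled for library size) there and 10.3 to 82.3 CPM in Col at 26 d. LHCB2.1 also counts among the GLK targets below and RBCS1A among the HY5 targets. Among replicates of a group, the lowest Spearman correlation over genes was 0.929 in chlorella-1 at 26 d, against at least 0.969 in each other group. SAG12, a protease gene that marks senescing leaves, had 1800, 4299 and 3553 CPM in chlorella-1 at 26 d, 197, 73.6 and 69.1 CPM in Col at 26 d, and no count at 14 d in either genotype. Replicate 2 of chlorella-1 at 26 d, which had the highest SAG12, also had the lowest scaling factor (0.782) of all libraries, and replicate 3 of that group the highest (1.286). Replicates 2 and 3 correlated least with each other. Nuclear genes took 38.8% to 49.4% of the counts in chlorella-1 at 26 d and 27.1% to 28.1% in Col at 26 d. Scaling on nuclear genes alone changed no call of the 10 factors. For most factors the log2 fold change at 26 d is given with and without replicate 2 below. Of 6 markers of other cell types, 3 or 4 had counts per library in chlorella-1 at 26 d and 2 to 4 in Col at 26 d, with summed levels of 73.9 to 139 CPM in chlorella-1 and 60.7 to 81.3 CPM in Col. Most of each sum was SUC2, a phloem companion cell gene, with 52.8 to 120 CPM in chlorella-1 and 58.8 to 79.2 CPM in Col at 26 d. At 14 d the sums were 133 to 163 CPM in chlorella-1 and 113 to 114 CPM in Col. The root markers PHT1;1 and RHD6 were at 0 in chlorella-1 at 26 d, and the petal gene AP3 reached at most 0.155 CPM. FAMA, a guard cell gene, had 5.57 to 6.86 CPM there and 1.63 to 1.94 CPM in Col at 26 d, and AT5G45880, annotated as a pollen allergen family gene, had 5.28 to 15.4 CPM against at most 0.148 CPM. The part of senescence and of these cell types in the results below was not tested. In bulk leaves, fewer cells of a type and less RNA per cell cannot be told apart.

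At 26 d, 9 of the 10 factors differed between chlorella-1 and Col. HY5 and PIF3 were higher in chlorella-1, and GLK1, GLK2, GNC, GNL, HYH, PIF5 and PIF1 were lower. Differences were called at an adjusted p under 0.05 in edgeR's quasi-likelihood test over all 20398 genes. The mutation went with so wide a change at this age that 31.5% of all tested genes were called higher and 31.8% lower, so 2 higher factors of 10 are no more than the background, and 7 lower of 10 stand against that 31.8%. The median log2 fold change was -1.57 over the 10 factors and -0.11 over all tested genes. In 9 of the 10 factors the 3 libraries of chlorella-1 did not overlap the 3 of Col, as was the case for 65.5% of all tested genes. Without replicate 2 of chlorella-1 the same number of factors was called, 2 higher and 7 lower.

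**Figure D1:**
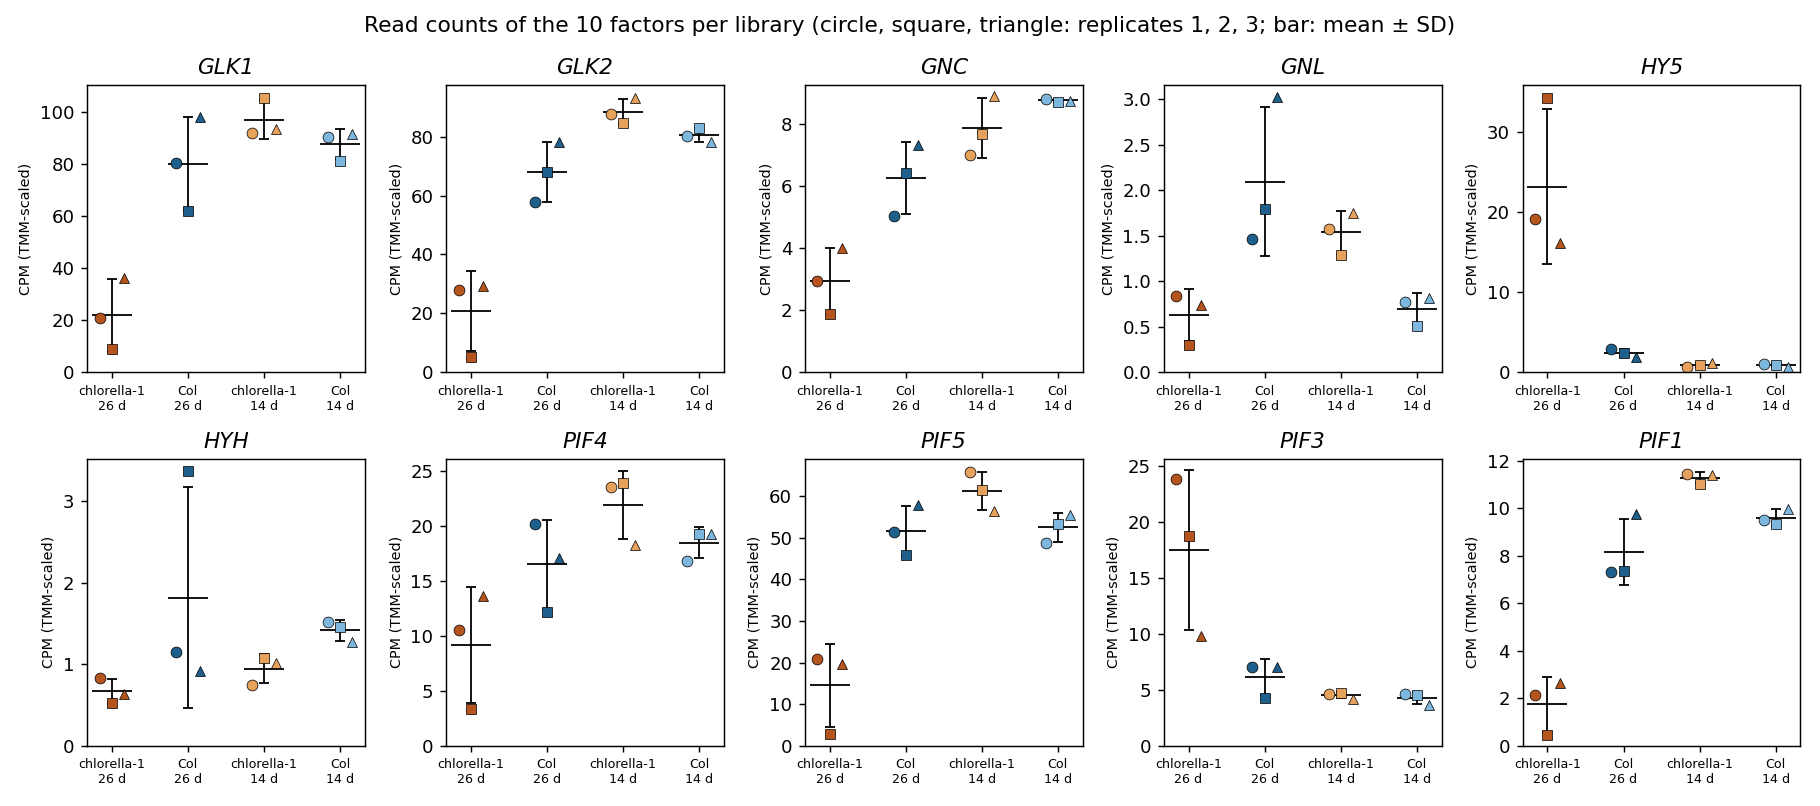
Level of each factor in every library, in CPM, read counts scaled for library size by TMM (vertical axis from 0), for chlorella-1 and Col at 26 d and then at 14 d. Symbols are libraries (circle, square and triangle for replicates 1, 2 and 3), bars are mean ± SD with n = 3. In chlorella-1 at 26 d, HY5 and PIF3 sit above every other library and GLK1, GLK2, GNC, PIF5 and PIF1 below every other library.

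HY5, the bZIP activator of light responses, showed the widest difference of the 10. It had 19.1, 34.2 and 16.1 CPM in chlorella-1 at 26 d, against 2.91, 2.43 and 1.92 CPM in Col at 26 d. Every mutant library lay above every Col library, and replicate 2 was the highest. The log2 fold change was 3.25 ± 0.32 (SE), a 9.55-fold higher level in chlorella-1 (edgeR, adjusted p = 7.44e-06), and 7.05% of tested genes had a larger value. Without replicate 2 it was 2.86 ± 0.24 (edgeR, adjusted p = 3.13e-06). At 14 d HY5 had only 0.606, 0.931 and 1.12 CPM in chlorella-1, against 0.991, 0.934 and 0.645 CPM in Col, and these ranges overlapped.

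HYH, which shares many of HY5's functions, did not follow it. It had 0.831, 0.526 and 0.638 CPM in chlorella-1 at 26 d and 1.15, 3.37 and 0.919 CPM in Col, where replicate 2 stood far above the other two. The log2 fold change was -1.43 ± 0.44 (edgeR, adjusted p = 0.0142). This call rests on the high Col library: without Col replicate 2 the log2 fold change was -0.64 ± 0.30 (edgeR, adjusted p = 0.0875), and it also missed the threshold with limma voom (adjusted p = 0.0519) and with the 26 d libraries fitted alone (edgeR, adjusted p = 0.0640).

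Scaled to exon length, HY5 thus made up nearly all of the pair in old mutant leaves. The share of HY5 in the summed length-scaled reads of HY5 and HYH was 93.4%, 97.6% and 94.0% in chlorella-1 at 26 d, against 61.0%, 30.8% and 56.3% in Col at 26 d. At 14 d it was 36.3% ± 3.86 in chlorella-1 and 27.0% ± 2.76 in Col (SD, n = 3 each). The 2 genotypes did not overlap at either age, with a difference of 45.6 percentage points at 26 d and 9.26 points at 14 d. Each gave p = 0.1 in a two-sided exact permutation test, the smallest that 3 libraries against 3 allow.

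Both genes of the GLK pair were lower in old mutant leaves. GLK1 (GPRI1 in the table) had 20.7, 8.67 and 36.1 CPM in chlorella-1 at 26 d and 80.2, 62.0 and 97.8 CPM in Col. The log2 fold change was -1.87 ± 0.39, or 3.66-fold lower (edgeR, adjusted p = 0.00135). GLK2 had 27.9, 5.17 and 29.4 CPM in chlorella-1 and 57.7, 67.9 and 78.2 CPM in Col, a log2 fold change of -1.70 ± 0.46 (edgeR, adjusted p = 0.00665). All mutant libraries lay below all Col libraries for both genes, and replicate 2 was the lowest. Without replicate 2 the log2 fold changes were -1.50 ± 0.24 for GLK1 and -1.25 ± 0.14 for GLK2, and both calls held. No shift of the balance inside the pair was detected: GLK1 gave 53.5% ± 10.15 of the length-scaled reads of the pair in chlorella-1 at 26 d and 53.8% ± 5.43 in Col (SD, n = 3 each; exact permutation p = 0.9).

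Both GATA factors were also lower in chlorella-1 at 26 d, from much lower levels. GNC had 2.95, 1.88 and 4.0 CPM in chlorella-1 and 5.03, 6.40 and 7.32 CPM in Col, with a log2 fold change of -1.08 ± 0.24 (edgeR, adjusted p = 0.00211). GNL (CGA1 in the table) had 0.831, 0.297 and 0.741 CPM in chlorella-1 and 1.47, 1.79 and 3.02 CPM in Col, with a log2 fold change of -1.72 ± 0.39 (edgeR, adjusted p = 0.00261). Without replicate 2 of chlorella-1 the log2 fold changes were -0.85 ± 0.19 for GNC and -1.41 ± 0.35 for GNL, and both calls held. No library of either gene overlapped between the genotypes, although the GNL values rest on 13 to 184 reads per library.

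The 4 PIF genes did not move as a block. PIF3, a PIF best known for repressing greening in the dark, was higher in chlorella-1 at 26 d with 23.8, 18.7 and 9.76 CPM, against 7.06, 4.31 and 7.01 CPM in Col. Its log2 fold change was 1.51 ± 0.29, or 2.85-fold (edgeR, adjusted p = 0.000877). PIF1 (PIL5), which restrains seed germination and chlorophyll synthesis in the dark, was lower with 2.13, 0.457 and 2.66 CPM in chlorella-1 and 7.32, 7.37 and 9.75 CPM in Col. The log2 fold change of PIF1 was -2.20 ± 0.41 (edgeR, adjusted p = 0.000724), the largest decrease among the 10 factors. Without replicate 2 of chlorella-1 it was -1.77 ± 0.16. An antisense neighbour, AT2G20170, overlaps PIF1, and the strand setting of the counting is not given in the sources used here, so PIF1 counts are uncertain to that extent.

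PIF5 (PIL6), a promoter of growth in shade and of senescence, had 20.9, 2.86 and 19.7 CPM in chlorella-1 at 26 d and 51.4, 45.8 and 57.9 CPM in Col. That is a log2 fold change of -1.83 ± 0.50 (edgeR, adjusted p = 0.00768), or -1.35 ± 0.13 without replicate 2 of chlorella-1. PIF4, which couples growth to warmth, had 10.5, 3.34 and 13.6 CPM in chlorella-1 and 20.2, 12.2 and 17.1 CPM in Col. The ranges of PIF4 overlapped and the difference was not called (log2 fold change -0.84 ± 0.38; edgeR, adjusted p = 0.0710). It passed without replicate 3 of chlorella-1 (-1.19 ± 0.37, adjusted p = 0.0151 in edgeR) and with limma voom (adjusted p = 0.0379). Without replicate 2 of chlorella-1, its lowest library, the log2 fold change of PIF4 was only -0.45 ± 0.21 (edgeR, adjusted p = 0.0808). PIF4 stayed uncalled in 18 of 20 alternatives.

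**Figure D2:**
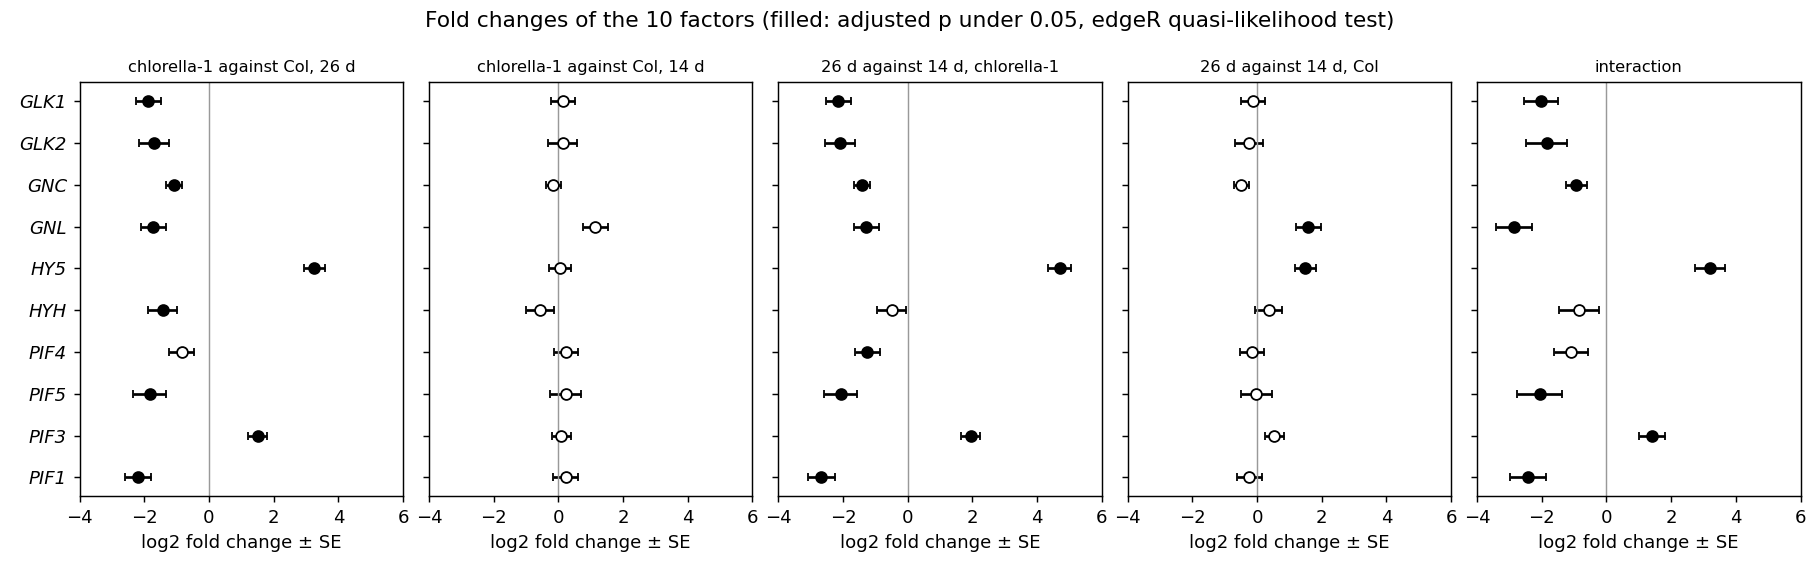
Log2 fold change ± SE of each factor in the 5 comparisons (horizontal axis), from edgeR's quasi-likelihood fit to all 12 libraries; filled points have an adjusted p under 0.05. The 26 d panel and the panel of ageing in chlorella-1 each hold 9 filled points, the 14 d panel none and the panel of ageing in Col only HY5 and GNL.

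PIF3 thus took a larger part of the PIF reads in old mutant leaves. Its share of the length-scaled reads of PIF1, PIF3, PIF4 and PIF5 was 39.7%, 72.3% and 20.1% in chlorella-1 at 26 d, against 7.63%, 5.72% and 7.07% in Col. The mutant libraries differed widely among themselves, with replicate 2 highest: the difference between the genotypes was 37.2 percentage points, and 23.1 points without that library. In the other 3 groups PIF5 held the largest share, with means of 61.7% to 62.8%. In chlorella-1 at 26 d it held 31.0% ± 16.9, against 62.8% ± 2.86 in Col of that age (SD, n = 3 each). The shares of PIF3 and of PIF5 separated the old mutant from the old Col libraries without overlap (two-sided exact permutation p = 0.1 for each, the smallest possible).

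**Figure D3:**
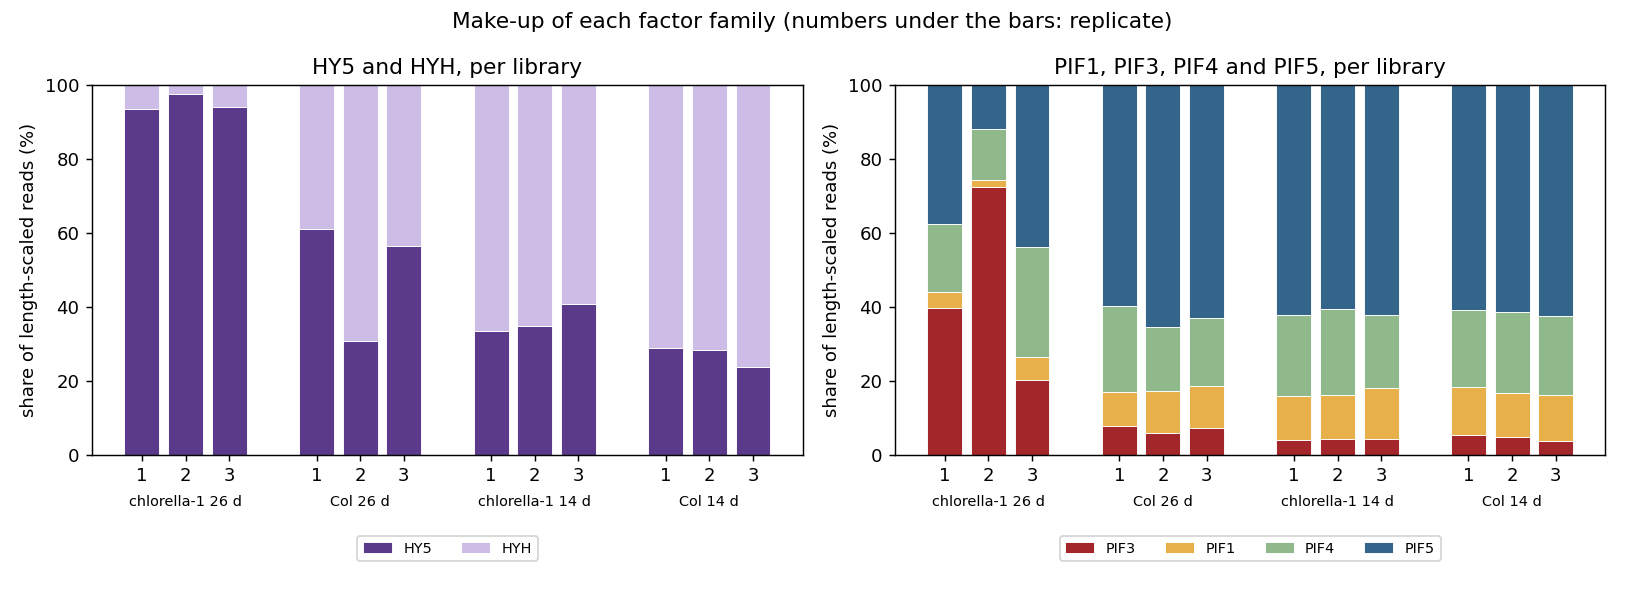
Share of length-scaled reads (percent, vertical axis) of HY5 and HYH, left, and of PIF3, PIF1, PIF4 and PIF5, right, in each library, with the replicate number under each bar. HY5 makes up 93.4% to 97.6% of its pair in chlorella-1 at 26 d, and PIF3 20.1% to 72.3% of the PIF reads there, against 5.72% to 7.63% in Col at 26 d.

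Levels of different factors were compared as RPKM, that is CPM divided by the exon length of the gene in kilobases. In chlorella-1 at 26 d HY5 came first of the 10 with 18.4 ± 7.72 RPKM, followed by GLK1 with 12.6 ± 7.94, GLK2 with 12 ± 7.84, PIF3 with 6.32 ± 2.58 and PIF5 with 5.66 ± 3.94 RPKM (SD, n = 3), and the SDs of neighbouring factors overlapped throughout this order. In Col at 26 d the order began with GLK1 at 46.2 ± 10.3, GLK2 at 39.2 ± 5.91 and PIF5 at 20.2 ± 2.36 RPKM, and HY5 was the 9th at 1.93 ± 0.39 RPKM. HY5 was the 10th in chlorella-1 at 14 d with 0.706 ± 0.21 RPKM and the 9th in Col at 14 d with 0.682 ± 0.15 RPKM. GLK1, GLK2 and PIF5 were the top 3 at 14 d in both genotypes, GLK1 at 56.0 ± 4.29 RPKM in chlorella-1 and 50.6 ± 3.37 RPKM in Col. By mean RPKM, HY5 exceeded 89.0% of tested genes in chlorella-1 at 26 d and 49.4% in Col at 26 d, and GLK1 84.9% in chlorella-1 and 97.5% in Col.

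At 14 d none of the 10 factors was called, with an unadjusted p under 0.05 for GNL alone. At this age 0.118% of tested genes were called higher in chlorella-1 and 0.0441% lower. The log2 fold changes ran between -0.58 ± 0.43 for HYH and 1.14 ± 0.39 for GNL, and the other 8 factors between -0.16 and 0.25. GNL had 1.57, 1.28 and 1.75 CPM in chlorella-1 at 14 d and 0.771, 0.504 and 0.819 CPM in Col, and the libraries did not overlap. Over all 12 libraries its adjusted p was 0.331, and in a fit of the 14 d libraries alone it was 0.0090 (edgeR), with a log2 fold change of 1.14 ± 0.25. That smaller fit called 14.6% of all tested genes. For 6 factors the genotypes did not overlap at 14 d, as did 30.9% of all tested genes.

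Ageing was compared within each genotype. The 2 ageing comparisons share no library with each other, but each shares its libraries with the comparisons between genotypes, so they are not independent of those. In chlorella-1, 9 factors differed between 26 d and 14 d. HY5 rose with a log2 fold change of 4.70 ± 0.35 (edgeR, adjusted p = 3.9e-07) and PIF3 with 1.95 ± 0.30 (adjusted p = 0.000106). The 7 that fell were GLK1 (-2.15 ± 0.39), GLK2 (-2.08 ± 0.46), GNC (-1.41 ± 0.24), GNL (-1.28 ± 0.39), PIF4 (-1.25 ± 0.38), PIF5 (-2.08 ± 0.51) and PIF1 (-2.67 ± 0.42). HYH was not called (-0.50 ± 0.44, adjusted p = 0.330 in edgeR). Without replicate 2 of chlorella-1 at 26 d the same 9 factors were called, with smaller changes. Examples were -1.77 ± 0.25 for GLK1, -1.60 ± 0.14 for PIF5 and -0.86 ± 0.21 for PIF4. Of all tested genes, 35.2% rose with age in chlorella-1 and 36.0% fell, and the median log2 fold change was -1.34 over the 10 factors and -0.11 over all tested genes.

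In Col, 2 factors changed with age, both upwards. HY5 had the 26 d values given above against 0.991, 0.934 and 0.645 CPM at 14 d, a log2 fold change of 1.49 ± 0.32 (edgeR, adjusted p = 0.00378). GNL rose by 1.58 ± 0.39 on the log2 scale (edgeR, adjusted p = 0.00745). In Col, 19.3% of tested genes rose with age and 20.2% fell. The median log2 fold change there was -0.08 over the 10 factors and 0.01 over all tested genes. GLK1 (-0.13 ± 0.37), GLK2 (-0.24 ± 0.44) and PIF5 (-0.02 ± 0.49) were not called. In a fit of the Col libraries alone, GNC was also called lower (-0.44 ± 0.14, adjusted p = 0.0321 in edgeR) and PIF3 higher (0.58 ± 0.21, adjusted p = 0.0428 in edgeR). That fit called 54% of all tested genes.

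The age change itself was tested between genotypes with the interaction term, the change in chlorella-1 minus the change in Col. It was called for 8 factors: positive for HY5 (3.21 ± 0.46; edgeR, adjusted p = 0.000299) and PIF3 (1.42 ± 0.41; adjusted p = 0.0166), and negative for GLK1, GLK2, GNC, GNL, PIF5 and PIF1. Over all tested genes, 21.2% had a called positive and 21.0% a called negative interaction, and the median was -1.47 over the 10 factors and -0.11 over all tested genes. GNL had the most negative value (-2.86 ± 0.55; edgeR, adjusted p = 0.00191), as it fell with age in chlorella-1 and rose in Col. HY5 rose in both genotypes, and by more in chlorella-1. The values for GLK2, GNC and PIF5 had adjusted p of 0.0354, 0.0422 and 0.0335 in edgeR, and each missed the threshold without replicate 3 of Col at 26 d or without any one of the 14 d libraries, GLK2 and GNC also without replicate 2 of Col at 26 d, and GNC also without replicate 1 of chlorella-1 at 26 d. HYH (-0.85 ± 0.61, adjusted p = 0.282) and PIF4 (-1.09 ± 0.53, adjusted p = 0.120) were not called in edgeR. Without replicate 2 of chlorella-1 at 26 d all 8 interaction calls held, with smaller values, such as -1.38 ± 0.18 for GLK2.

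All 20 tested genes known as GLK targets moved in one direction at 26 d. These genes, which encode light-harvesting proteins and enzymes of chlorophyll synthesis, were lower in chlorella-1, with log2 fold changes of -3.84 to -1.12 and a median of -3.09, where 31.8% of all tested genes were lower. LHCB5, a minor antenna protein, averaged 145 ± 12.8 CPM in chlorella-1 and 1362 ± 445 CPM in Col (SD, n = 3 each; log2 fold change -3.23 ± 0.25; edgeR, adjusted p = 1.45e-06). CHLM, a chlorophyll enzyme gene, averaged 2.93 ± 0.30 CPM in chlorella-1 and 35.1 ± 9.60 CPM in Col, but overlaps an antisense gene. The near-identical copies LHCB1.1 and LHCB1.2, and LHCB2.1 and LHCB2.2, may share reads.

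The same 20 genes fell with age in both genotypes. In ageing Col all 20 fell, with a median log2 fold change of -1.59. GLK1 and GLK2 themselves had -0.13 ± 0.37 and -0.24 ± 0.44 there, not called, and their part in the fall was not tested. CHLH, a subunit of magnesium chelatase, had 297 ± 79.7 CPM in Col at 26 d and 1544 ± 213 CPM in Col at 14 d (SD, n = 3 each; log2 fold change -2.38 ± 0.25; edgeR, adjusted p = 4.85e-05). In ageing chlorella-1 all 20 fell, with a median of -4.64. At 14 d none of the 20 was called between the genotypes. In the fit of the 14 d libraries alone 8 were called, where 14.6% of all tested genes were called.

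**Figure D4:**
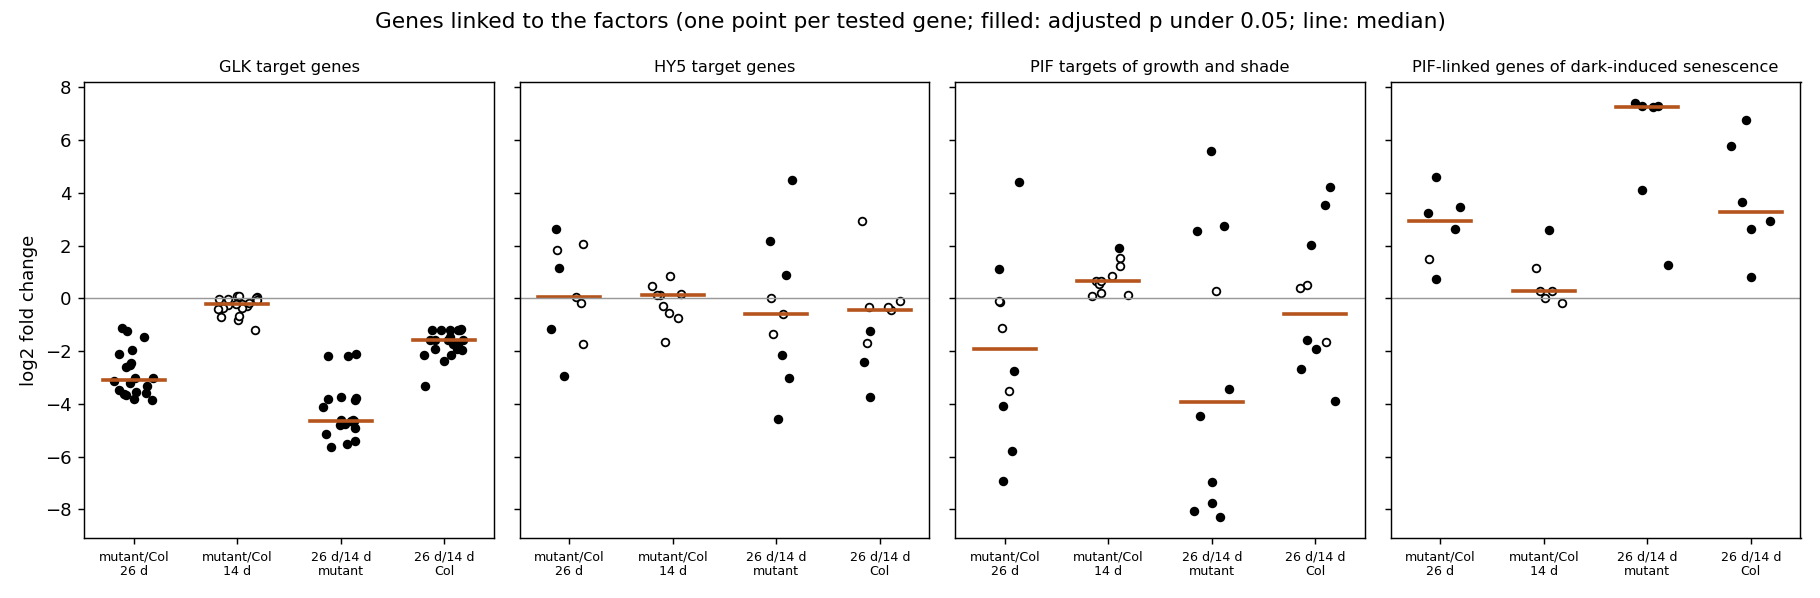
Log2 fold change (vertical axis) of each tested gene in 4 lists of genes linked to the factors, in 4 comparisons; mutant stands for chlorella-1, points are genes, filled points have an adjusted p under 0.05 (edgeR) and lines are medians. All 20 GLK targets lie below 0 at 26 d and in both ageing comparisons, while HY5 targets lie on both sides; fitted values of genes without a count in a group depend on the fit and are not bounds.

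Known HY5 targets did not move one way. Of 9 tested at 26 d, 2 were higher in chlorella-1, 2 were lower and 5 were not called, with a median log2 fold change of 0.04, where 63.3% of all tested genes were called. CHI, a flavonoid enzyme, averaged 3.43 ± 0.26 CPM in chlorella-1 and 1.55 ± 0.47 CPM in Col (SD, n = 3 each), and ELIP1, a light stress protein of the chloroplast, 5.50 ± 4.86 CPM in chlorella-1 and 0.883 ± 0.24 CPM in Col. RBCS1A, a small subunit of Rubisco, averaged 86.3 ± 8.75 CPM in chlorella-1 and 658 ± 244 CPM in Col, and PSY, which opens carotenoid synthesis, 21.8 ± 3.77 CPM in chlorella-1 and 49.3 ± 10.6 CPM in Col; PSY overlaps an antisense gene.

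Of 10 tested PIF targets of growth and shade, 2 were higher and 4 lower in chlorella-1 at 26 d, near the 31.5% and 31.8% over all tested genes. CKX5, a cytokinin oxidase, averaged 80.3 ± 9.77 CPM in chlorella-1 and 3.72 ± 0.53 CPM in Col (SD, n = 3 each), though antisense and same-strand genes overlap it. IAA29, an auxin-response repressor, averaged 0.0252 ± 0.044 CPM in chlorella-1 and 1.76 ± 0.66 CPM in Col. PIL1, a PIF-related gene of shade responses, had no count in chlorella-1 and 0.249 ± 0.16 CPM in Col, at least 13.9-fold lower if the mutant group is given 3 counts in all, the limit taken here for a count of 0, which covers counting error only. The median log2 fold change of these 10 genes was -1.93 as fitted and -0.70 with the 2 genes without counts in chlorella-1 set at that limit.

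Genes that PIF4 and PIF5 are known to promote in dark-induced senescence were mostly higher in old mutant leaves. Of 6, 5 were higher in chlorella-1 at 26 d and none lower, with a median log2 fold change of 2.94, against 31.5% of all tested genes called higher. NYE1 and NYC1, which dismantle chlorophyll, averaged 1396 ± 295 and 3174 ± 603 CPM in chlorella-1, against 57.1 ± 10.5 and 288 ± 56.9 CPM in Col (SD, n = 3 each). ORE1, a master NAC factor of senescence, had 198, 292 and 217 CPM in chlorella-1, against 24.6, 20.8 and 29.3 CPM in Col. ORE1 was also the only one of the 6 called at 14 d, with 1.85, 0.835 and 1.47 CPM in chlorella-1 and 0.317, 0.0889 and 0.279 CPM in Col (log2 fold change 2.59 ± 0.41; edgeR, adjusted p = 0.0347). That call was lost in 11 of 20 alternatives: with DESeq2 size factors, limma voom or a replicate block, and without any one Col library of 14 d, replicate 1 or 3 of chlorella-1 at 14 d, replicate 1 or 3 of Col at 26 d, or replicate 1 of chlorella-1 at 26 d. In ageing Col all 6 rose, and the alternatives called 5 or 6 of them. Of the 6, 1 was near the floor, with no count in Col at 14 d and a mean of 0.111 CPM in Col at 26 d. The log2 fold changes of PIF4 and PIF5 in ageing Col were -0.16 ± 0.38 and -0.02 ± 0.49, not called. Whether either factor had a part in the levels of these 6 genes was not tested.

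Upstream of the factors, 7 of 10 photoreceptor genes were lower in chlorella-1 at 26 d and 2, PHYE and CRY2, were higher, against 31.8% and 31.5% of all tested genes. Their median log2 fold change was -1.03, and -0.11 over all tested genes. PHYE overlaps a gene on the same strand. CRY1, a blue light receptor, averaged 66.7 ± 20.3 CPM in chlorella-1 and 196 ± 16.6 CPM in Col, and PHYB, the main red light receptor, 10.2 ± 2.31 CPM in chlorella-1 and 21.9 ± 4.90 CPM in Col (SD, n = 3 each). In ageing Col only CRY2 was called, and it rose. The alternatives called between 0 photoreceptor genes there (without replicate 2 of Col at 14 d) and 4 (without replicate 2 of chlorella-1 at 26 d, or with the Col libraries alone). Over all tested genes these runs called 28.4%, 50% and 54%, in the order given.

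Among 8 genes of the COP1, SPA and DET1 machinery that removes HY5 protein in the dark, 4 were lower in chlorella-1 at 26 d and 2 higher, near the shares of 31.8% lower and 31.5% higher over all tested genes. COP1 averaged 7.10 ± 1.41 CPM in chlorella-1 and 12 ± 0.46 CPM in Col (SD, n = 3 each; log2 fold change -0.76 ± 0.14; edgeR, adjusted p = 0.000751). DET1, a repressor of light responses, averaged 1.16 ± 0.49 CPM in chlorella-1 and 2.80 ± 0.53 CPM in Col. When only the 26 d libraries were fitted, 3 of the 8 were called, against 51.6% of all tested genes. SPA2, a partner of COP1, was higher, with 28.1 ± 3.78 CPM in chlorella-1 and 19.3 ± 1.86 CPM in Col.

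Some B-box proteins bind HY5 or act beside it, and binding was not measured here. Of 16 tested, 8 were lower and 2 higher in chlorella-1 at 26 d, with a median log2 fold change of -0.73; the 10 called stand against 63.3% of all tested genes called at this age. BBX16 averaged 0.544 ± 0.10 CPM in chlorella-1 and 6.81 ± 1.15 CPM in Col (SD, n = 3 each; log2 fold change -3.63 ± 0.22; edgeR, adjusted p = 3.74e-07). BBX15 averaged 41.9 ± 25.8 CPM in chlorella-1 and 155 ± 9.27 CPM in Col.

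Relatives of the factors and other regulators had called genes in both directions, in lists of 4 to 8 genes, where 63.3% of all tested genes were called. Of 8 other PIF-related bHLH genes, 2 were higher and 3 lower in chlorella-1 at 26 d: PIF7, a shade regulator, averaged 1.01 ± 0.31 CPM in chlorella-1 and 5.56 ± 1.11 CPM in Col, and HFR1, which restrains PIFs, 30.4 ± 4.58 CPM in chlorella-1 and 14.0 ± 5.82 CPM in Col (SD, n = 3 each). The other lower genes were near the floor: PIL1, without a count in chlorella-1, and PAR2, with 0.067 ± 0.047 CPM there and 0.258 ± 0.13 CPM in Col. HFR1 and PIL1 are also counted among the PIF targets of growth and shade above. HFR1 was the only one of these 8 called at 14 d, with 4.49 ± 1.08 CPM in chlorella-1 and 1.21 ± 0.29 CPM in Col (log2 fold change 1.90 ± 0.31; edgeR, adjusted p = 0.0485). This call, too, was lost with limma voom or a replicate block, and when any one 14 d library, or replicate 1 of either genotype at 26 d, was left out. Of 4 other B-class GATA genes, GATA17 was higher and GATA15 lower at 26 d. Of 6 other regulators of greening, SCL27 and GUN1 were higher, SCL22 and GBF1 lower and 2 not called. In the phytochrome A branch, FHY3 and FAR1 were higher and FHL and HMR lower, of 5 genes. PIF7, GBF1 and HMR overlap antisense genes.

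For each factor, the genes whose log2 CPM ran most like it over the 12 libraries were found among all tested genes with a symbol. These libraries are 4 groups of 3, and the old mutant libraries stand apart from the other 9 for most factors, so the values describe shared group differences. GLK1 was closest to BEH1, a brassinosteroid-related factor (Pearson's r = 0.998), and AFB5, an auxin receptor (0.995). GLK2 ran most like CYP76C6 (0.997) and ATAB2, a chloroplast RNA-binding protein (0.996), and PIF1 most like NFU3 (0.996) and CHUP1, which positions chloroplasts (0.995). HY5 ran most like SGP1 (0.994) and PEX10, a peroxisome assembly protein (0.993). PIF5 was closest to YSL5 (0.994), GNC to Tic20-V, a chloroplast import protein (0.988), PIF4 to YDA, a kinase (0.979), and PIF3 to UNE6 (0.978). GNL and HYH had the weakest best partners, MEE14 (0.941) and SFR2 (0.891).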

How the data were processed

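The deposited table holds, per the file headers, whole-number read counts and FPKM for each library. Per the submitters' processing notes, the authors used STAR, HISAT2, HTSeq, StringTie and DESeq2 with build TAIR10. Which tool did which step, and whether counting used strand, is not given in the sources used here. The columns' B1, B2 and B3 were taken as replicates 1, 2 and 3. The 12 FPKM columns were not used, because some carry no replicate number. Another 50 rows that name no gene, with 0.0771% to 0.216% of the counts, were left out.

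Differences came from edgeR 4.0.16 (R 4.3.3) on the deposited counts: filterByExpr, TMM scaling, and 1 quasi-likelihood model with a term per group over all 12 libraries. The model was also run on simulated counts, drawn from the means, spreads and library sizes of the fit to these data. All p are two-sided and adjusted by Benjamini-Hochberg within each of 5 comparisons, with calls under 0.05. CPM use TMM-scaled library sizes, and RPKM divide them by exon length from the TAIR10.1 annotation. Low read numbers limit precision most for GNL, HYH and, at 14 d, HY5. PIF1 had 20 reads in replicate 2 of chlorella-1 at 26 d.

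The 10 members and 11 gene lists (107 genes) were chosen with earlier results of these data known. Named genes are all members, up to 4 called genes with the smallest p per list and comparison, marker genes, and the 3 likeliest genes per factor. Genes outside that rule that are named as members of a count of 5 or fewer were chosen after their values were seen. Alternatives were DESeq2 size factors, scaling on nuclear genes, no filter, a filter of 10 counts, limma voom (3.58.1), DESeq2 (1.42.0), a block for the replicate number, a fit limited to the compared groups, and each library left out.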

Additional observations from a re-analysis of the deposited data

Results flagged for a closer look

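The change with age differed between the genotypes, by the interaction term of the edgeR fit, for 8 of the 10 factors. On the log2 scale the change in chlorella-1 minus that in Col was 3.21 for HY5 and 1.42 for PIF3. It was -2.02 for GLK1, -1.84 for GLK2, -0.92 for GNC, -2.86 for GNL, -2.05 for PIF5 and -2.43 for PIF1. Over all tested genes, 21.2% had a called positive and 21.0% a called negative interaction. GNL was the only one of the 8 called in opposite directions in the 2 genotypes, with -1.28 in chlorella-1 and 1.58 in Col. HY5 was called upwards in both, with 4.70 in chlorella-1 and 1.49 in Col.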

How the results depend on the processing

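No value of the 10 factors that passed the threshold turned its direction in any alternative run. The calls of HY5 and PIF3 at 26 d, in ageing chlorella-1 and in the interaction held in every one. The number of factors called at 26 d was 8 to 10 when single libraries were left out, and in ageing Col 2 to 3. With only the compared groups fitted, 8 factors were called at 26 d, HYH being lost (adjusted p = 0.0640 in edgeR), 1 at 14 d and 4 in ageing Col. Those fits called 51.6%, 14.6% and 54% of all tested genes, in the same order. For the interaction, leaving out single libraries gave 5 to 9 called factors; GLK2, GNC and PIF5 were the ones lost, with adjusted p up to 0.0725, 0.0978 and 0.0718, and PIF4 was gained without replicate 3 of chlorella-1 at 26 d. The 5 came from leaving out replicate 3 of Col at 26 d or any one 14 d library; the cause was not tested. A fit with a replicate block gave 9, 0, 9, 2 and 8 called factors at 26 d, at 14 d, in ageing chlorella-1, in ageing Col and for the interaction. Libraries of the same number did not deviate together: 1 of 18 correlations exceeded 0.1 (-0.131 to 0.146). DESeq2 size factors moved the median of all genes by 0.13 on the log2 scale at 26 d, without changing a call of a factor. At 14 d, 0 factors passed with edgeR, limma voom and DESeq2 on all libraries. In the fit of the 26 d libraries alone, 3 other PIF-related bHLH genes and 1 other B-class GATA gene were called, against 5 and 2 in the fit of all libraries. Counts of 13 to 198 reads per library limit GNL and HYH. Leaving out single libraries for the family shares was chosen after seeing the data; the genotype difference at 26 d was then 36.3 to 51.4 percentage points for HY5 and 23.1 to 49.2 for PIF3.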
